A study of Drosophila melanogaster with 6 samples.

Results

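The nuclear genes for 3 of the machines of mitochondrial respiration were placed on maps of chromosome folding from the eye and antennal discs of *Drosophila melanogaster*. Members were all annotated protein-coding genes on the main chromosome arms whose symbol starts with ND-, COX or ATPsyn, which gave 71 of 13911 protein-coding genes. Of these, 40 belong to complex I, 16 to complex IV and 15 to complex V. The rule used symbols alone and no measured value. The 3 COX genes of the mitochondrial chromosome lie outside it, and *Cox10*, *Cox11* and *Cox17*, whose symbols are spelled differently, were not members.

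Respiration passes electrons from NADH through complex I (NADH dehydrogenase), complex III and cytochrome c to complex IV (cytochrome c oxidase), where oxygen is reduced. The protons pumped on the way drive complex V, the ATP synthase, whose rotor turns inside a catalytic head that makes ATP. Complexes I, IV and V each join subunits encoded in the mitochondrial genome with many encoded in the nucleus, and most cells need all of them.

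Hi-C, a method that ligates and sequences fragments of chromatin found near each other, had been done on hand-separated eye and antennal discs, the larval epithelia that form the adult eye and antenna. Larvae of both groups were in the third instar and of genotype yw;+;+, and each library came from a pool of 125 discs. Each deposited list gives topologically associating domains (TADs) by position, that is, stretches of chromosome that contact themselves more than their surroundings. The lists compared were those of libraries 1, 2 and 3 of the eye disc and of libraries 2 and 3 of the antennal disc, with 1 further list per tissue that the authors made from all replicates, called pooled here. Library 1 of the antennal disc was not analysed here on its own, while the pooled antennal list is labelled as made from all replicates. Pooled antennal values may therefore hold a library that is not among the 5 compared. The eye libraries held 1188, 1142 and 1116 TADs, and the antennal ones 1186 and 1217. The files hold no contacts, so depth is unknown, and no expression values, so the tissue labels could not be set against marker genes and no statement on transcription is possible. Eye disc library 1 and antennal disc library 3 had no TADs on chromosome 4. Nothing says that libraries came from separate crosses, so the spread between them may be technical.

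A border is a TAD edge, and the positions are multiples of 5 kb, called a bin here. The distance of a gene is the mean of the distances of its ends to the nearest border, and a gene is at a border when an end lies within 1 bin of it. The host TAD is the TAD that holds the gene's midpoint. Distances in all 5 libraries were available for 67 members. *ND-15*, which encodes an accessory complex I subunit, spans 2L from 114726 to 156030 and reaches beyond the first border of the arm in all 5 libraries. *ND-AGGG* on 3L had no value in eye disc library 1, and *ND-49* and *ATPsynbeta*, both on chromosome 4, had none in the libraries without TADs there. Coordinates are those of the RefSeq annotation of Release 6, the assembly named dm6 by the submitters.

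The members lay at distances from borders that were spread about as widely as those of other genes, with a slightly lower median. The median over the 67 members, from the mean of the tissue means, was 21.3 kb with quartiles of 11.3 and 35.8 kb. Over all 13698 protein-coding genes with 5 values it was 24.9 kb, with quartiles of 13.8 and 40.5 kb. Of the 67 members, 39 lay nearer to a border than the median gene, against 50% of all genes by construction. Measured from the nearer end of each gene alone, the medians were closer, at 20.8 kb for the members and 22.1 kb for all genes. By that measure 36 of the 67 members lay nearer than the median gene. Complex I genes had a median of 24.0 kb, complex IV genes 16.8 kb and complex V genes 20.02 kb. The 71 mitochondrial ribosomal protein genes with values had a median of 20.1 kb and the 89 cytosolic ribosomal protein genes 15.4 kb.

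**Figure D1:**
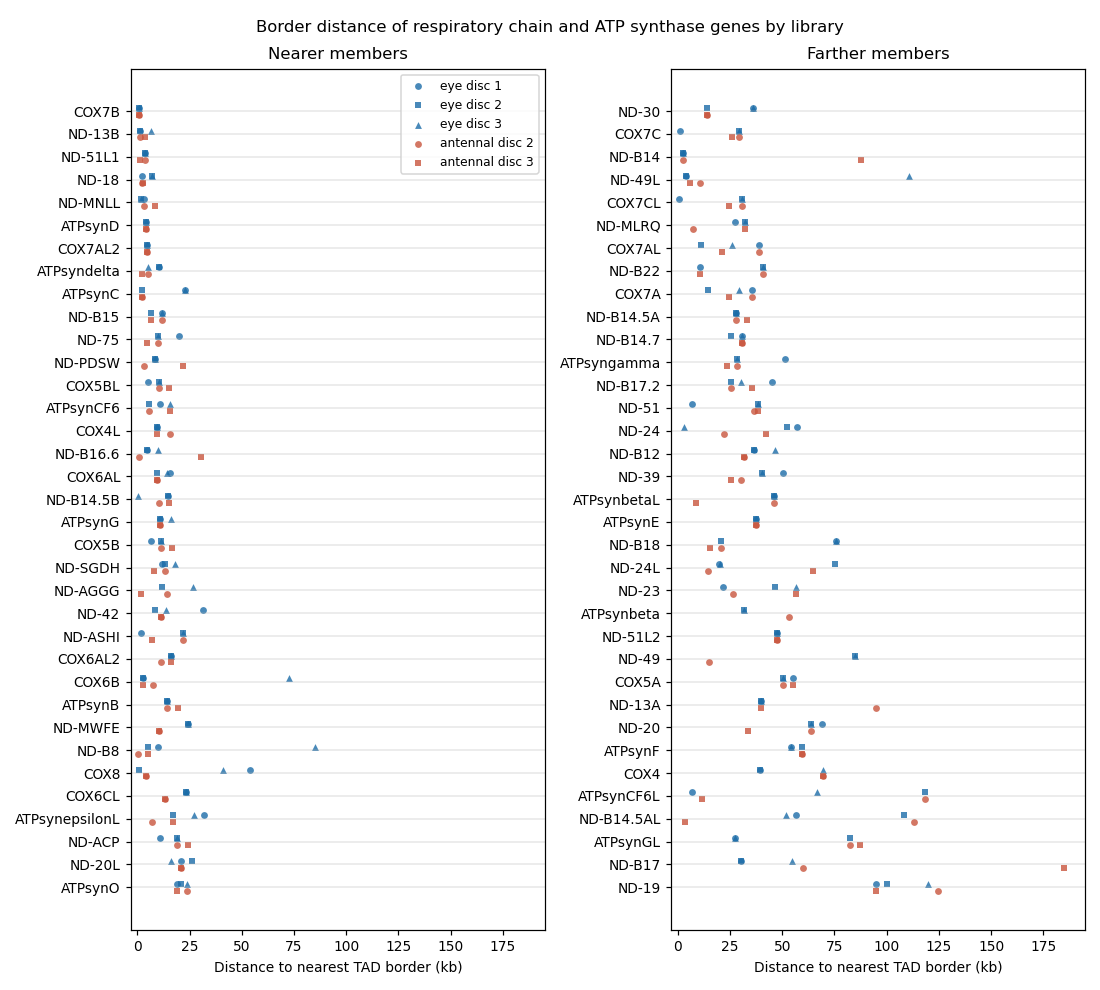
Distance to the nearest TAD border (kb) of each member with a value, ordered by mean distance from top to bottom of the left and then the right panel, with 1 point per eye disc library (blue) and antennal disc library (red). Points of a gene often fall on each other, as for *COX7B* at 0.879 kb, whereas those of *ND-B17* run from 30.2 to 185 kb.

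Among complex I genes the range was the widest of the 3 complexes. *ND-13B*, an accessory subunit gene on 3L from 10693184 to 10694108, was the nearest, at 1.35, 1.35 and 6.35 kb in the eye libraries and 1.35 and 3.65 kb in the antennal libraries. *ND-18* on X from 19492421 to 19493337, also an accessory subunit gene, lay at 2.12, 7.12 and 7.12 kb and at 2.12 and 2.88 kb. *ND-MNLL* on X from 7893053 to 7893798 lay at 3.43, 1.57 and 1.57 kb and at 3.43 and 8.43 kb. In all 3 genes the tissues overlapped and libraries differed by less than 2 bins. *ND-19*, an accessory subunit gene on 2R from 24664398 to 24665439, was the farthest of all members, at 95.1, 100.1 and 120 kb in the eye libraries and 124 and 95.1 kb in the antennal libraries. It sat deep inside a TAD of 215 to 250 kb that every library called.

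Most nuclear-encoded core subunits of complex I carry its flavin, its iron-sulphur clusters or the quinone site. The 7 nuclear genes for core subunits are *ND-75*, *ND-51*, *ND-49*, *ND-30*, *ND-24*, *ND-23* and *ND-20*. Their median was 33.7 kb over the 6 with 5 values, and 2 of the 6 lay nearer to a border than the median gene. *ND-75*, the largest of them, was the nearest, at 19.8, 9.83 and 9.83 kb in the eye libraries and 9.83 and 4.83 kb in the antennal libraries. *ND-20*, the iron-sulphur subunit next to the quinone site, was the farthest, at 68.9, 63.9 and 63.9 kb against 63.9 and 33.9 kb. *ND-49* on chromosome 4, the other subunit of that site, lay at 84.9 kb in eye disc libraries 2 and 3 and at 15.1 kb in antennal disc library 2. With 1 antennal value, the difference for *ND-49* has no replicate check.

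Among complex IV genes, the nuclear-encoded subunits that surround the mitochondrially encoded catalytic core, *COX7B* held the shortest distance of all members. It lies on 3L from 17425477 to 17426282, and a border stood at 17425000 in every library, 0.879 kb away by the measure used. In the eye list from all replicates the border was 1 bin farther off, at 5.88 kb. *COX4*, which encodes a large nuclear subunit, was the farthest complex IV gene, at 39.4, 39.4 and 69.4 kb in the eye libraries and 69.4 kb in both antennal libraries. Eye disc library 3 shared the antennal value, so the tissues overlapped.

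Complex V genes ranged from *ATPsynD*, for a peripheral stalk subunit, to the copy *ATPsynGL*. *ATPsynD* on 3R from 19095000 to 19096271 lay at 4.36 kb in all 5 libraries and in both lists from all replicates. *ATPsynC*, for the membrane ring of the rotor, lay at 22.9, 2.11 and 22.9 kb in the eye libraries and at 2.11 kb in both antennal libraries. *ATPsyndelta*, for a subunit of the central stalk, lay at 10.2, 10.2 and 5.18 kb and at 5.18 and 2.21 kb. *ATPsynbeta*, the catalytic subunit gene on chromosome 4, lay at 31.8 kb in eye disc libraries 2 and 3 and at 53.2 kb in antennal disc library 2. Of these 4 genes, the eye and antennal values were apart only for *ATPsynbeta*, which rests on 1 antennal library.

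At least 1 end lay within 1 bin of a border for 15 of 67, 13 of 70 and 9 of 70 members in the eye libraries, which is 22.4%, 18.6% and 12.9%. The shares of all protein-coding genes in the same libraries were 18.8%, 17.3% and 15.1%. In the antennal libraries the counts were 15 of 70 and 15 of 68, or 21.4% and 22.1%, against 18.5% and 19.1% of all genes. In the lists from all replicates they were 14 of 70 for the eye (20%, background 16.6%) and 16 of 70 for the antenna (22.9%, background 18.6%). The members stood above the background in 4 libraries and below it in eye disc library 3.

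A border was present in every library at 4 of the 67 members, 5.97% against a background of 5.38%. Besides *COX7B* and *ATPsynD*, these were *COX7AL2* and *ND-51L1*. *ND-51L1*, on 2R from 17595267 to 17597409, had its nearest border at 17600000 in 4 libraries and at 17595000 in antennal disc library 3. *COX7AL2*, on 2L from 2192525 to 2197912, had its nearest border at 2200000 in every library. For *ATPsynD* the border stood at 19100000 on 3R. At the other extreme, 42 of the 67 members, or 62.7%, were at a border in no library, against 65% of all genes. Both counts were close to those of protein-coding genes in general.

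**Figure D2:**
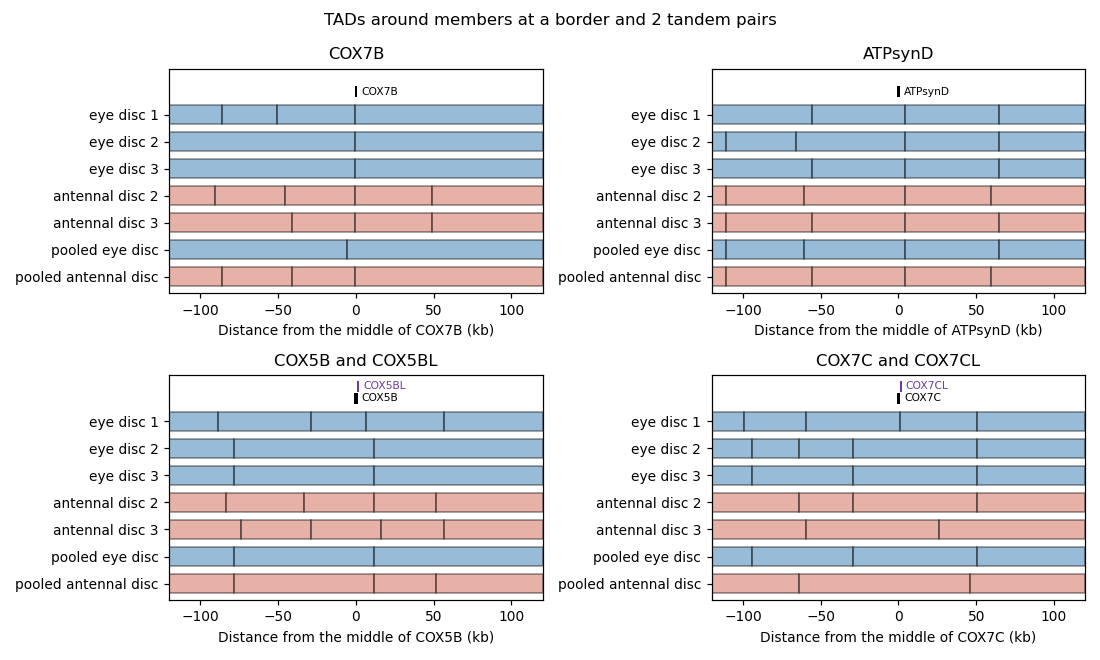
TADs (bars; blue for eye disc and red for antennal disc) in each library and each pooled list around *COX7B*, *ATPsynD* and the neighbouring pairs *COX5B* and *COX5BL*, and *COX7C* and *COX7CL*, against distance from the middle of the first gene (kb). A border stands beside *COX7B* and *ATPsynD* in each library, and in eye disc library 1 alone a border separates *COX7C* from *COX7CL*.

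The far edge of such a host could still differ between the discs. The *COX7B* host, which starts at 17425001 in every library, was 170, 135 and 135 kb wide in the eye libraries and 50 kb wide in both antennal libraries. It held 26, 25 and 25 protein-coding genes in the eye libraries and 10 in each antennal library. In the antennal list from all replicates this TAD was 135 kb wide, as in eye disc libraries 2 and 3, so the difference between libraries did not carry over to that list. The *COX7B* host was singled out after its values were seen.

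The tissues were then compared gene by gene. In 4 of 67 members every eye library gave a longer distance than every antennal library, 5.97% against a background of 7.47%. In 1 member, or 1.49%, every antennal library gave the longer distance, against 5.15%. With 3 libraries against 2 an exact two-sided permutation test cannot give a p under 0.2, and after Benjamini-Hochberg adjustment over 13698 genes every adjusted p was 1. With all 5 libraries the share of members that did not overlap was below that of all genes in both directions, but this turned in some other settings. In the pooled lists the eye distance was the longer in 28.6% of members (background 27.7%) and the antennal distance in 30% (background 21.6%). Without antennal disc library 2 the shares were 19.4% (background 18.6%) and 17.9% (background 14.3%). The eye share was 17.9% without eye disc library 2 (background 12.5%) and 16.4% without antennal disc library 3 (background 14.4%). In these last 2 settings the antennal share stayed below, at 4.48% (background 9.05%) and 7.46% (background 12.2%). Both shares stayed below without eye disc library 1, at 7.35% (background 14.4%) and 2.94% (background 9.1%). They also did without eye disc library 3, at 8.96% (background 9.28%) and 4.48% (background 8.12%). The same held with TAD starts alone, with the nearer end of each gene and with TADs under 50 kb left out. It also held without eye disc library 1 and antennal disc library 3 together, and when libraries 2 and 3 were compared between tissues by number.

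**Figure D3:**
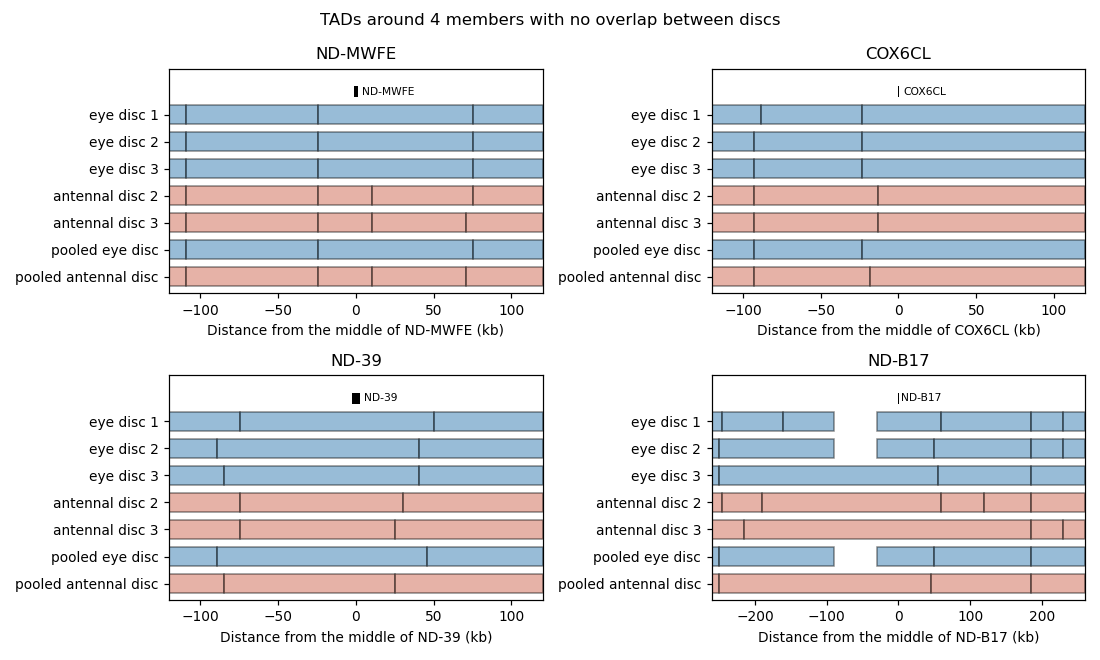
TADs (bars; blue for eye disc and red for antennal disc) in each library and each pooled list around *ND-MWFE*, *COX6CL*, *ND-39* and *ND-B17*, against distance from the middle of the gene (kb); blank stretches hold no TAD. The TAD of *ND-MWFE* is 100 kb wide in the eye libraries and 35 kb in the antennal libraries, and the TAD of *ND-B17* begins beside a blank stretch in eye disc libraries 1 and 2.

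*ND-MWFE*, an accessory subunit gene of complex I on 2R from 13158666 to 13160190, had the clearest separation. It lay at 24.4 kb in all 3 eye libraries and at 10.6 kb in both antennal libraries, 13.9 kb apart. Its host ran from 13135001 to 13235000 in the eye libraries and held 30 protein-coding genes. In the antennal libraries the host ended at 13170000, was 35 kb wide and held 8. Both lists from all replicates gave the same 2 distances, 24.4 and 10.6 kb. A linear model fitted across all genes (limma on log2 of distance plus 5 kb), planned as an alternative, gave an adjusted p of 0.00446. With the replicate number as a block, on libraries 2 and 3 of each tissue, limma called 0 members and 0 of 13698 genes, so this call was lost.

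*COX6CL*, a copy of a complex IV subunit gene on 2L from 5817890 to 5818443, lay at 23.2 kb in all eye libraries and at 13.2 kb in both antennal libraries. The start of its host moved from 5795001 to 5805001, and in the antennal list from all replicates it stood between them, at 5800001. The limma adjusted p for *COX6CL* was 0.00945, and this call too was lost with the replicate block. These were the 2 members of 67 that limma called. It called 1.4% of all genes with the eye disc farther and 0.642% with the antennal disc farther. Neither gene's distance varied among libraries of 1 tissue, and neighbouring genes that share a border share such values.

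*ND-39*, an accessory subunit gene of complex I on 3L from 20492082 to 20497084, lay at 50.4, 40.4 and 40.4 kb in the eye libraries, a mean of 43.8 ± 5.77 kb (SD, n = 3). In the antennal libraries it lay at 30.4 and 25.4 kb, a mean of 27.9 ± 3.54 kb (SD, n = 2). The edge of its host nearest to it stood at 20545000, 20535000 and 20535000 in the eye libraries and at 20525000 and 20520000 in the antennal libraries. *ND-B12*, for another accessory subunit, lay at 36.6, 36.6 and 46.6 kb against 31.6 kb in both antennal libraries. The nearest values of the tissues were 1 bin apart for *ND-B12*, the resolution of the map, and limma called neither gene (adjusted p = 0.357 for *ND-39* and 0.718 for *ND-B12*).

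*ND-B17* was the member with the longer antennal distances. It encodes an accessory subunit of complex I and lies on 2L from 15749319 to 15751078, 1168 bp from *CycE*, the gene of the cell cycle regulator cyclin E, with which it shared its host in all 5 libraries. *ND-B17* lay at 30.2, 30.2 and 54.8 kb in the eye libraries and at 59.8 and 185 kb in the antennal libraries. The eye minus antennal difference of the means was -83.9 kb, but -21.4 kb without antennal disc library 3 and -14.6 kb in the pooled lists (30.2 and 44.8 kb). Its host was 90, 80 and 305 kb wide in the eye libraries and 250 and 400 kb wide in the antennal libraries, so it was wider in eye disc library 3 than in antennal disc library 2. In eye disc libraries 1 and 2 the border nearest to *ND-B17* was the edge of a stretch without a TAD. The limma adjusted p was 0.718.

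When only gaps of more than 1 bin between the tissues were counted, 3 of 67 members remained with the eye disc farther (background 3.23%). With the antennal disc farther 0 remained (background 2.5%). The 3 were *ND-MWFE*, *COX6CL* and *ND-39*.

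Across the whole set the median distance was shorter in the antennal libraries. Per library it was 19.6, 19.9 and 26.9 kb in the eye disc, a mean of 22.1 ± 4.10 kb (SD, n = 3). In the antennal disc it was 14.8 and 16.3 kb, a mean of 15.6 ± 1.05 kb (SD, n = 2), which is 6.55 kb lower. Over all protein-coding genes the medians were 20.6, 23.7 and 25.5 kb against 22.6 and 20.9 kb, a difference of 1.505 kb. Both antennal medians of the members lay below all 3 eye medians, whereas those of all genes overlapped. This order was not particular to the members. Mitochondrial ribosomal protein genes had it too, at 20.4, 17.7 and 19.9 kb against 16.8 and 16.3 kb. So had the other respiratory chain genes described below, with a difference of 6.46 kb, whereas the medians of cytosolic ribosomal protein genes overlapped. In the authors' lists from all replicates the members' medians were 20.5 kb for the eye and 19.4 kb for the antenna, so the difference there was 1.12 kb, against 2.14 kb for all genes. The members' difference was thus above that of all genes in the libraries and below it in the pooled lists. Gene by gene, the eye mean was above the antennal mean in 32 members and below it in 27, with 8 equal. The eye mean was above the antennal mean in 49.5% of all genes, and the median difference of the members was 0 kb.

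**Figure D4:**
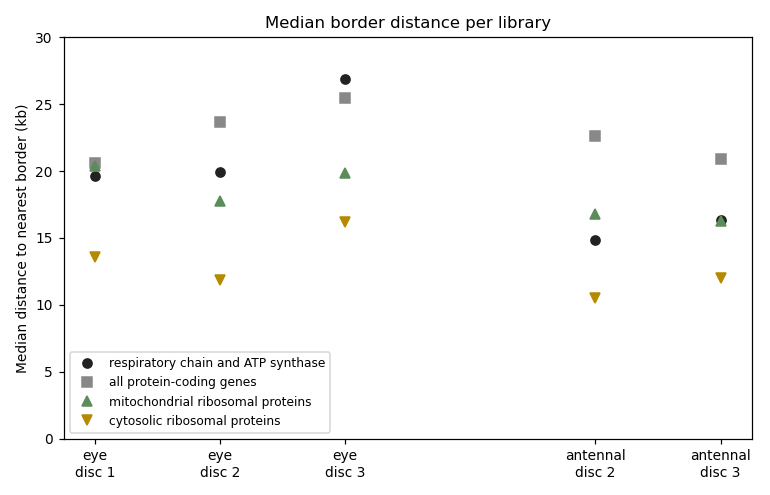
Median distance to the nearest border (kb) in each library for the members, for mitochondrial and cytosolic ribosomal protein genes and for all protein-coding genes, 1 point per list and library. The members' antennal points, at 14.8 and 16.3 kb, lie below their eye points at 19.6, 19.9 and 26.9 kb.

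By complex, the eye mean of the library medians was 24.5 kb and the antennal mean 18.3 kb for complex I, with 21 genes whose antennal distance was the shorter and 13 whose eye distance was. For complex IV the means were 16.1 and 14.0 kb, with 5 and 9 genes. The 9 include the neighbouring pairs *COX5B* and *COX5BL*, *COX7A* and *COX7AL*, and *COX7C* and *COX7CL*. The genes of each pair had the same nearest border in every library, so they are not separate observations. For complex V the means were 23.02 and 20.1 kb, with 6 and 5 genes. The SD of the library medians within a tissue ran from 2.41 to 7.37 kb over the 3 complexes. The complex I medians were 21.1, 24.4 and 27.98 kb in the eye libraries and 15.1 and 21.4 kb in the antennal libraries, so the tissues overlapped, and in the pooled lists they were 21.1 and 19.6 kb. Whether the complexes differed from each other was not tested.

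Several members varied more between libraries of 1 tissue than between tissues. The distance was identical in all 5 libraries for 5 members, 7.46% against 6.96% of all genes. These were *COX7B*, *ATPsynD*, *COX7AL2*, *ATPsynE* at 37.3 kb and *ND-51L2* at 47.5 kb. The 5 values lay within 1 bin for 17 members, 25.4% against 28.4%. They ranged over more than 50 kb for 13 members, 19.4% against 15.6%.

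In several of those 13 a single library stood apart, *ND-B17* with its 185 kb in antennal disc library 3 among them. *ND-B14* lay at 2.49 kb in 4 libraries and at 87.5 kb in antennal disc library 3. *ND-13A* lay at 39.7 kb in 4 libraries and at 94.7 kb in antennal disc library 2. *ND-49L* lay at 111 kb in eye disc library 3 and at 4.16 to 10.8 kb in the others. In the same eye library *ND-B8* lay at 85.1 kb and *COX6B* at 72.4 kb, against at most 9.92 and 7.56 kb elsewhere. By construction, the borders nearest to the gene in the other libraries had no counterpart in the one that stood apart. These genes were singled out after their values were seen.

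*ATPsynCF6L* and *ND-B14.5AL* had no stable value in either tissue. *ATPsynCF6L* lay at 6.79, 118 and 66.8 kb in the eye libraries and at 118 and 11.8 kb in the antennal libraries. *ND-B14.5AL* lay at 56.7, 108 and 51.7 kb and at 113 and 3.25 kb. *ATPsynGL* lay at 27.4, 82.4 and 27.4 kb in the eye libraries and at 82.4 and 87.4 kb in the antennal libraries, where eye disc library 2 shared an antennal value. All 3 are copies and are among the 6 members farthest from borders by their mean.

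Copies are members whose symbol repeats that of another subunit gene and ends in L, with or without a number. There were 18 of them among the 71 members, and nuclear copies of this kind are often expressed in the testis in *Drosophila*. Copies lay on 2L (4), 2R (5), 3L (5) and 3R (4), and 0 lay on X, which carried 11 of the other 53 members. The X holds 15.8% of all protein-coding genes and 15.5% of the members. For 14 copies the gene of the same stem was a member, and 3 of these stem genes lie on X (*ND-20*, *ND-24* and *ND-B14.5A*) and 2 on chromosome 4 (*ATPsynbeta* and *ND-49*). The median distance was 22.6 kb for the copies and 21.3 kb for the other members.

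Copies lay both nearer to and farther from borders than the genes they match. Of the 14, 8 lay nearer to a border than the gene of the same stem and 6 farther. The copy minus stem difference was under 1 bin for *COX5BL* (-1.23 kb), *COX7AL* (-0.583 kb), *COX7CL* (0.426 kb) and *ND-24L* (4.24 kb). *ATPsynbetaL* and *ND-49L* were set against chromosome 4 genes with 1 antennal value each. The largest differences ran both ways, with *ATPsynCF6L* at a mean of 64.5 kb against 10.6 kb for *ATPsynCF6*, and *ATPsynGL* at 65.3 kb against 11.8 kb for *ATPsynG*. *COX4L* lay at 10.9 kb against 59.4 kb for *COX4*, and *ND-20L* at 21.1 kb against 57.2 kb for *ND-20*. The copies of *ND-51*, which encodes the flavin-binding subunit and lay at 32.6 kb, fell on both sides of it, *ND-51L1* at 3.08 kb and *ND-51L2* at 47.5 kb.

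Of the 14 copies, 4 lie on the arm of their stem gene, and 3 of these pairs are close neighbours that shared a TAD. *COX5B* and *COX5BL* on 2L are 0.122 kb apart and *COX7A* and *COX7AL* on 3R 2.63 kb apart, with 2 genes between them, and each pair shared its host in all 5 libraries. *COX7C* and *COX7CL* on 2R, 0.281 kb apart, shared a host in 4 libraries. In eye disc library 1 a border at 10050000 fell inside *COX7C*, and the hosts ran from 9990001 to 10050000 and from 10050001 to 10100000. A pair of unlike subunits, *ATPsynF* and *ND-19* on 2R, shared a host in all 5 libraries at a distance of 64.6 kb with 15 protein-coding genes between them. All 4 pairs shared a host in both lists from all replicates, and no other members did.

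The host TADs of the members were kept between the discs about as often as those of other genes. In the lists from all replicates both edges agreed within 1 bin for 33 of 69 members with a host in both, 47.8% against 48.9% of all genes. By complex the host was kept for 17 of 38 complex I genes, 9 of 16 complex IV genes and 7 of 15 complex V genes. Over the 6 pairs of an eye and an antennal library the share of members kept had a mean of 30.1% and ran from 20.9% to 39.1%, against a mean of 32.1% for all genes. Over the 4 pairs within a tissue the mean was 37.3%, from 26.9% to 52.2%, against 36.6%. The ranges across and within tissues overlapped. The lowest shares within a tissue, 31.8% and 26.9%, were those of eye disc library 1 with eye disc libraries 2 and 3 (27% and 25% of all genes). With the antennal libraries the same library gave 26.9% and 20.9% (24.8% and 22.7%). Eye disc libraries 2 and 3 gave 52.2% with each other (52.7%).

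Hosts kept in every pair of libraries were those of *ND-B15*, *ND-B14.7*, *ATPsynB*, *COX6AL2* and *COX5A*, 5 of 67 members against a background of 6.22%. *ATPsynB* encodes the long peripheral stalk subunit of the ATP synthase, and *COX5A* a nuclear subunit of complex IV. Their distances were 14.4, 14.4 and 14.4 kb against 14.4 and 19.4 kb for *ATPsynB*, and 55.2, 50.2 and 50.2 kb against 50.2 and 55.2 kb for *COX5A*. The host of *COX5A* was nevertheless 110 kb wide in the pooled eye list and 220 kb wide in the pooled antennal list, against 110 or 115 kb in the 5 libraries.

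Where hosts differed between the lists from all replicates, 19 were wider by more than 1 bin for the eye and 15 for the antenna. Members that share a host were each counted. The same counts were not made for all genes, whose median host was 135 kb wide in the eye list and 125 kb in the antennal list. An antennal border more than 2 bins from any eye border of the host split the eye TAD of 21 of 69 members, against 29.8% of all genes. An eye border split the antennal TAD of 16 of 70 members, against 18.7%. The widest host in the eye list was the 455 kb TAD of *ND-B14.5AL*, which was 135 kb wide in the antennal list. The widest in the antennal list was the 295 kb TAD of *ND-B17*, with 31 protein-coding genes, against 80 kb and 10 genes in the eye list. The narrowest in both lists was the 25 kb TAD of *ATPsynC*, which held 6 genes.

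**Figure D5:**
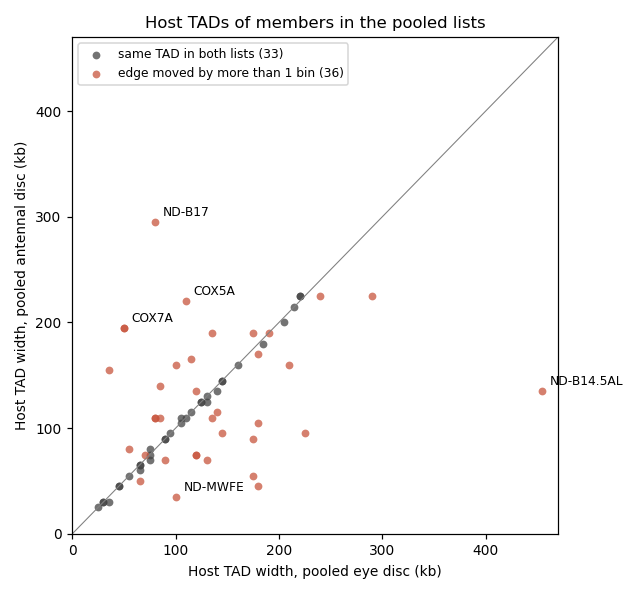
Width of the host TAD (kb) of 69 members in the pooled eye list (horizontal) against the pooled antennal list (vertical), with the line of equal width; grey points are the 33 hosts kept within 1 bin at both edges and red points the others. *ND-B14.5AL* lies at 455 kb against 135 kb and *ND-B17* at 80 kb against 295 kb.

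The median host width of the members was 115, 110 and 130 kb in the eye libraries and 112.5 and 97.5 kb in the antennal libraries. For all protein-coding genes it was 110, 135 and 135 kb and 125 and 115 kb. The members' hosts were narrower in 4 libraries and wider in eye disc library 1, and narrower in both lists from all replicates, at 115 against 135 kb and 110 against 125 kb.

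Members were shorter than most genes, with a median length of 1094 bp against 2161 bp for all protein-coding genes, and their surroundings were close to the background. Of the 71, 34 overlapped another protein-coding gene, 47.9% against 41.4%, and the median number of genes within 25 kb was 9, against 8. In all 5 libraries 41 of 67 members shared their host with both neighbouring genes, 61.2% against 64.3%.

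The neighbours are given as examples chosen after their values were seen. *COX7B* and *Sec3*, an exocyst subunit gene 259 bp away, were in the same host in 0 of 5 libraries, since the border at *COX7B* stood between them. *ATPsynD* shared its host with *mRpL55*, a mitochondrial ribosomal protein gene 94 bp away, in all 5 libraries and with its other neighbour in 0. *ND-PDSW*, an accessory complex I gene, lay 44 bp from *msl-2*, a gene of X chromosome dosage compensation, and shared a host with it in all 5 libraries. *ND-B16.6* lay 227 bp from *kdn*, the citrate synthase gene, and shared a host in 4 libraries.

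Other genes of the respiratory chain outside the symbol rule were taken from a list of complexes II and III, cytochrome c and further subunits, of which 24 were found and 23 had 5 values. Their median was 13.7 kb, and 14 of the 23 lay nearer to a border than the median gene. The nearest were *Cyt-c-p*, for the somatic cytochrome c, and *RFeSP*, the Rieske iron-sulphur protein of complex III. *Cyt-c-p* lay at 3.71, 3.71 and 1.36 kb and at 1.36 kb in both antennal libraries. *RFeSP* lay at 3.29, 1.71 and 3.29 kb and at 1.71 kb in both. Both were at a border in all 5 libraries. The farthest were genes of complex II, succinate dehydrogenase. *SdhAL* lay at 76.3, 81.3 and 81.3 kb against 81.3 and 46.3 kb, and *SdhB* at 13.4, 23.4 and 28.4 kb against 148 and 23.4 kb.

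Of the 23, 3 complex III genes had longer distances in every eye library (background 7.47%) and 1 in every antennal library (background 5.15%). *UQCR-Q* lay at 50.4 kb in the eye libraries and at 0.682 kb in both antennal libraries, but at 55.4 and 50.4 kb in the lists from all replicates. Its border in the antennal libraries, at 17475000 on 3L, is the far edge of the *COX7B* host there. The differences at *UQCR-Q* and at the *COX7B* host are therefore the same observation. *UQCR-14* lay at 21.6, 16.6 and 16.6 kb against 6.64 and 11.6 kb, and *ox* at 7.67 kb in the eye libraries against 2.67 and 2.33 kb. *UQCR-C1* ran the other way, at 18.7, 23.7 and 23.7 kb against 33.7 and 38.7 kb. The exact permutation p of each was 0.2, the smallest the design allows, with an adjusted p of 1.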

How the data were processed

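The deposited files hold chromosome, start and end of each TAD and no other value, per the files themselves. The authors used Bowtie2 2.3.4.2 and the dm6 build, per the submitters' processing notes. Which TAD caller was run, and how, is not given in the sources used here. Depth is unknown, so precision rests on 3 and 2 libraries, and 0 columns of per-sample values were left unused. TAD starts and ends were taken as borders, and facing edges of neighbouring TADs at most 5 kb apart were merged at their midpoint. A gene that reached beyond the first or last border of its arm in a library had no value there. Genes, without strand or sequence, came from a RefSeq table of Release 6, so no promoter or protein is shown and no transcription start was used. Tissues were compared by exact two-sided permutation over the 10 assignments of libraries to tissues, with Benjamini-Hochberg adjustment over 13698 genes. limma 3.58.1 (R 4.3.3) was an alternative.

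The members, lists and tests were chosen with earlier results of these data known. Genes are named by rule: the 6 nearest and 6 farthest members, up to 6 per direction whose libraries did not overlap, members at a border in all libraries or sharing a host, copies with their stem genes, the widest and narrowest hosts, and the 2 nearest and 2 farthest other chain genes. Core complex I genes and others were named after their values were seen. Of 26 other chain genes written down, 24 were found; the remaining ones are members under newer symbols. Computations in Python 3.11.15 with pandas 2.3.3, scipy 1.17.1 and numpy 2.4.6, plotted with matplotlib 3.10.9, were tested on simulated data.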

Additional observations from a re-analysis of the deposited data

How the results depend on the processing

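The counts of members whose libraries did not overlap depended on how many libraries were compared. Leaving out each library in turn gave 5 to 13 members with the eye disc farther and 2 to 12 with the antennal disc farther. Without antennal disc 2 the counts were 13 and 12, with backgrounds of 18.6% and 14.3%. Without antennal disc 3 they were 11 and 5 (14.4% and 12.2%), without eye disc 2 they were 12 and 3 (12.5% and 9.05%), without eye disc 3 the antennal count was 3 (8.12%), and without eye disc 1 it was 2 (9.1%). Fewer libraries make it easier not to overlap. The lists from all replicates gave 20 and 21 (27.7% and 21.6%) and a difference of medians of 1.12 kb, against 2.14 kb for all genes. Leaving out eye disc 1 and antennal disc 3 together, chosen after seeing the data, gave 15 and 9 (23.8% and 18.6%), a difference of medians of 8.56 kb and -17.3 kb for *ND-B17*. With TADs under 50 kb left out 3 members (4.48%) were farther in the antennal disc, against 5.18% of all genes. The difference of medians in that setting fell to 2.89 kb, against 1.31 kb for all genes. The cause was not tested. With the replicate block on numbers 2 and 3 the counts were 8 and 2 (17.8% and 11.2%), the median 21.6 kb and its difference 7.82 kb. The correlations of deviations between same-numbered libraries were 0.134 and -0.0373 over 13698 genes. With only 2 antennal libraries their deviations mirror each other by construction, so these values cannot decide whether the numbers pair the samples. The numbers were not taken as pairing them. The exact test called 0 members at an adjusted p under 0.05, limma called 2 (3 at an unadjusted p under 0.05), limma with the replicate block 0 (4 unadjusted), and limma without 1 library, added after seeing the data, 2 to 9: 9 without antennal disc 2, 7 without antennal disc 3, 6 without eye disc 2, 3 without eye disc 3 and 2 without eye disc 1. Of all 13698 genes, 1024 had an unadjusted limma p under 0.05, and 1718 with the replicate block. Without eye disc 1, limma called 701 genes with the eye disc farther and 440 with the antennal disc farther. These counts were 250 and 207 without eye disc 2, and 129 and 92 without eye disc 3. Without antennal disc 2 or antennal disc 3, only 1 antennal library remained, so the 9 and 7 calls have no antennal replicate check. With 1 library left out, the members' median stayed between 19.1 and 21.6 kb and its difference between 4.19 and 7.82 kb. The members nearer than the median gene then numbered between 36 and 40. In the same settings *ND-B17* ranged from -146 to -21.4 kb, and in the pooled lists it was at -14.6 kb. The number at a border in all libraries was 4 to 6 with 1 library left out, 2 within 2.5 kb, 8 within 2 bins and 11 in both lists from all replicates. Hosts kept between discs numbered 21 with identical edges and 6 when every eye and antennal pair of libraries had to agree. These counts of borders and hosts were not made over all genes in the same settings, so they have no background. A wider tolerance cannot lower such counts. The tissue differences of *ND-MWFE*, *COX6CL*, *ND-39*, *ND-B12* and *ND-B17* and the difference of medians kept their sign in every setting run. These genes were picked because their libraries did not overlap, so leaving out libraries could not change the sign of their differences. The balance of the counts turned in the pooled lists, from 4 against 1 to 20 against 21. So did the members' shares against the background there (28.6% and 30%) and without antennal disc 2 (19.4% and 17.9%). The planned use of transcription starts and of promoter and protein sequences was not run, since the annotation used gives neither strand nor sequence.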
